A study of Homo sapiens with 15 samples.

Results

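The BCL2 family holds the genes that decide whether a cell opens its outer mitochondrial membrane and enters apoptosis. Here 10 of these genes were followed among the 18858 genes of the count table, namely BMF, BCL2L11 (which encodes BIM), BBC3 (PUMA), PMAIP1 (NOXA), BIK, BAD, BCL2, BCL2L1 (BCL-XL), MCL1 and BAX. They were taken by symbol and all 10 were present. BMF was picked because it had the largest rise in cells depleted of both YAP and TAZ, so it was chosen by its counts in the siYAP+TAZ and siControl libraries, and these are given as a description, with no test. The other 9 were taken for their place in the family.

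MDA-MB-231, an established line from a human breast adenocarcinoma, was profiled in 5 groups of 3 libraries. Cells were left untransfected (Control) or received a SMARTpool of siRNAs that was non-targeting (siControl), against YAP1 (siYAP), against WWTR1, the gene of TAZ (siTAZ), or both targeting pools together (siYAP+TAZ). All 15 libraries carry the genotype label WT and all come from this 1 line. Each pool was used at 30 nM, so siYAP+TAZ cells received 60 nM in all, and the larger total amount of siRNA and the loss of both proteins cannot be told apart. After 48 h of knockdown the cells were placed on gelatin for 5 to 6 h before polyadenylated RNA was taken. Libraries are named by their numbers, which run from 16 to 20, from 21 to 25 and from 26 to 30, each run with 1 library of every group in the order just given, so that 20, 25 and 30 are the co-knockdown. The RNA came from independent sets of experiments, but no source used here says which libraries shared a set, and the runs of library numbers were tried as a block in the fit.

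YAP and TAZ are co-activators of transcription that the Hippo pathway holds back and that act mainly through TEAD factors on DNA. In the mitochondrial pathway of apoptosis, BAX and its relative BAK1 form the pores, BCL2, BCL-XL and MCL1 hold them in check, and the BH3-only proteins BIM, PUMA, NOXA, BIK, BAD and BMF bind the guards or activate the pore formers. BMF binds dynein light chains and is known as a trigger of anoikis, the death of cells that lose their attachment to matrix.

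The count of each library, 18696737 to 30107312 reads (median 22902846), was scaled by TMM to normalized counts, which stand for the reads a library of average size would hold. YAP1 and WWTR1 check the labels. YAP1 lay at 4202 to 4431 in siControl, at 1013, 2764 and 761 in siYAP, and at 2240.2, 2202 and 1796 in siYAP+TAZ. WWTR1 lay at 1579 to 1995 in siControl, at 828, 254 and 521 in siTAZ, and at 1133, 1123 and 1284 in siYAP+TAZ. Each target was thus lower in every library that received its pool than in every siControl library, and WWTR1 stayed higher in siYAP+TAZ than in siTAZ. Of these 4 differences only that of WWTR1 in siTAZ passed the adjusted p of edgeR (log2 -1.74, adjusted p = 0.019). VIM and CD44, markers of a mesenchymal triple-negative line, were abundant in siControl at 28898 ± 483 and 20818 ± 1642 (SD, n = 3). The level of AXL, the other marker of that list, is not given here. PGR was near 0 at 1.26 ± 0.52, while ERBB2 lay at 2453 ± 265. The luminal epithelial markers KRT8, KRT18 and EPCAM lay at 24065 ± 960.0, 6184 ± 234 and 342 ± 36.6, so that KRT8 was in the range of VIM and CD44. Of the markers of other cells, PTPRC (immune) was near 0 at 3.34 ± 1.56 and KDR (endothelial) was at 162 ± 25.8. ESR1, CDH1, CD3E, CD68, CDH5, VWF and DCN were not analysed here.

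Upstream sequence is shown first for the genes on which the results turn. The windows are the 250 bases before the start sites that RefSeq gives on GRCh38.p14. The sequences are printed in the direction of the gene and leave out any bases in exons of the same gene in GENCODE release 44, while motifs were searched in the whole 250 bases. RefSeq windows matched 8 of the 10 members, in 11 windows, and not BIK or MCL1. Capitals mark the letters of 4 motifs searched on both strands, namely GGAATG (TEAD), TGANTCA (AP-1), GTAAACA (FOXO) and CACGTG (E-box). The printed part of the first BMF window lies at chr15:40108893-40109129 (minus strand), before the outer start, and the second at chr15:40106967-40107216 (minus strand), before a start inside the gene. That of the BBC3 window lies at chr19:47232767-47232917 (minus strand) and the BCL2L11 window at chr2:111120664-111120913 (plus strand).
BMF, outer start: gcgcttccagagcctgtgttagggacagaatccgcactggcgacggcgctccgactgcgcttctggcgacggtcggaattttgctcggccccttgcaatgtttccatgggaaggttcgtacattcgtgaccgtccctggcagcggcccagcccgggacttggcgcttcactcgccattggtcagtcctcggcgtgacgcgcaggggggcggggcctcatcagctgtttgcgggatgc
BMF, inner start: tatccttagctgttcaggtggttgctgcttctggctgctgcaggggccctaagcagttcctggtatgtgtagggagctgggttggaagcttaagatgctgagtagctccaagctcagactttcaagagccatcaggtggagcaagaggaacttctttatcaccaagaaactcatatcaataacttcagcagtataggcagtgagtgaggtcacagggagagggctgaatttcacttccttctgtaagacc
BBC3: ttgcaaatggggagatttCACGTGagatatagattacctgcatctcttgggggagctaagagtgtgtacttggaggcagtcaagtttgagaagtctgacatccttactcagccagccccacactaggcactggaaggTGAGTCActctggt
BCL2L11: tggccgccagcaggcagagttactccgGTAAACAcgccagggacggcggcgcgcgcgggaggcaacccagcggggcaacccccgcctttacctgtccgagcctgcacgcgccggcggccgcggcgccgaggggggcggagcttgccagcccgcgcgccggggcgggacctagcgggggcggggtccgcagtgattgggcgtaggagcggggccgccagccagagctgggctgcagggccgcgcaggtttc
Neither BMF window held any of the 4 motifs. TEAD letters were in 0 of the 11 member windows and in 11.9% of all 35116 RefSeq windows, where the BCL2 window and the inner BCL2L1 window lie wholly in exons of their own gene. BBC3 held the E-box letters at -232 and AP-1 letters at -113 from its start site, which 6.35% and 6.57% of all windows hold. BCL2L11 held FOXO letters at -223, which 2.98% of all windows hold, and the BAX window, not shown, held E-box letters at -138, -93, -45 and -14, of which those at -45 and -14 lie in its last 60 bases, which are exonic. A match is a description of letters and no match says nothing of a factor.

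BMF was low in every library but those of the co-knockdown. Its normalized counts were 14.99, 9.33 and 7.89 in Control, 7.65, 14.8 and 7.51 in siControl, 11.5, 19.9 and 16.4 in siYAP, 25.8, 24.6 and 29.6 in siTAZ, and 140.3, 157 and 424 in siYAP+TAZ. The lowest siYAP+TAZ library stood above the highest library of every other group. These values rest on 6 to 30 reads in each library of the other 4 groups and on 118, 146 and 462 reads in siYAP+TAZ. By group mean the order was siControl (9.99 ± 4.16), Control (10.7 ± 3.75), siYAP (15.9 ± 4.21), siTAZ (26.7 ± 2.58) and siYAP+TAZ (240.4 ± 159, SD, n = 3 each). The libraries of both control groups and of siYAP overlapped, those of siTAZ lay above all of them, and the co-knockdown lay above siTAZ. The fitted log2 fold change of siYAP+TAZ over siControl was 4.58 (SE 0.44), a 23.9-fold difference. Library 30 carried much of it, and without that library the log2 fold change was 3.88, or 14.7-fold. YAP1 was lowest of the siYAP+TAZ libraries in library 30 (1796) and WWTR1 was highest there (1284), and their part in the BMF value was not tested. In bulk RNA, fewer cells with a transcript and less of it per cell cannot be told apart.

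**Figure D1:**
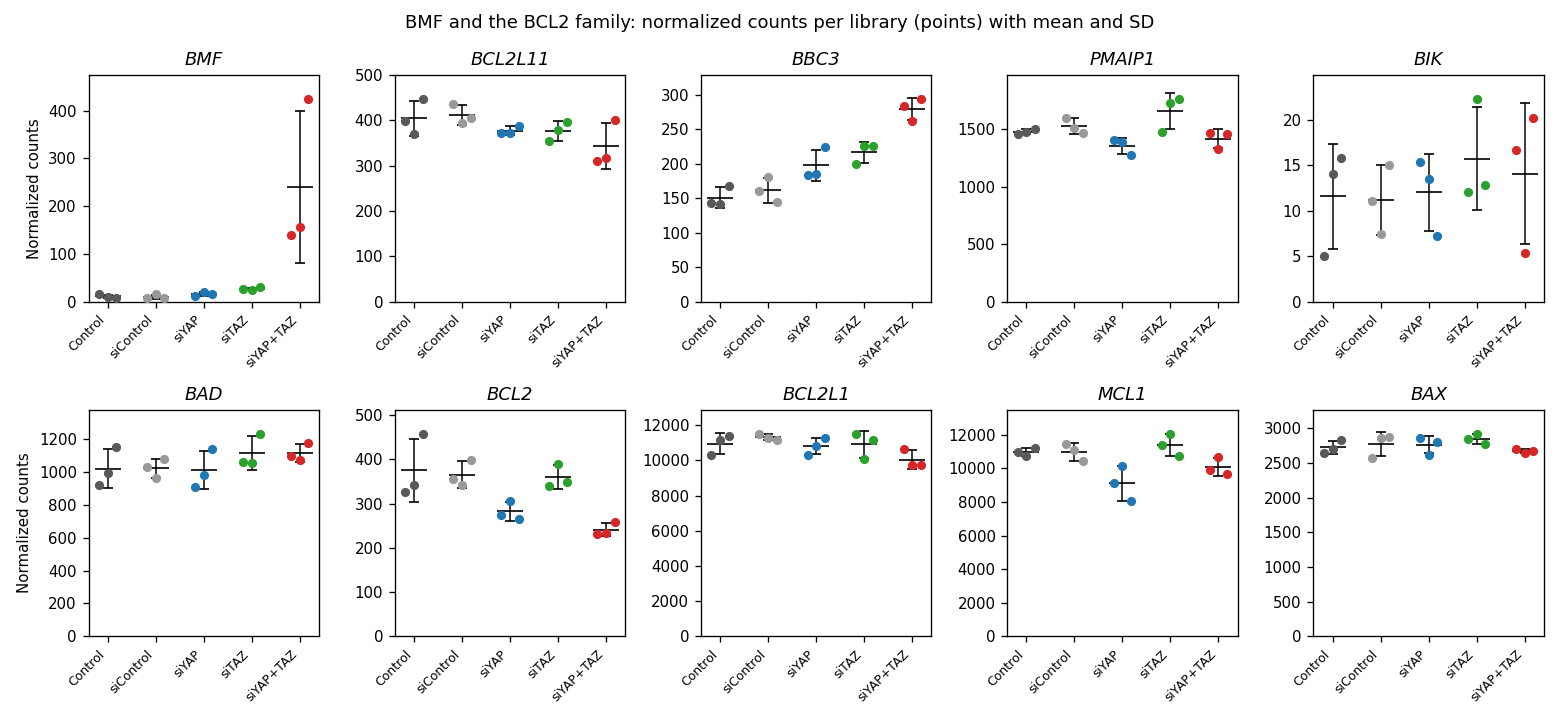
Normalized counts (y axis, from 0, a scale for each gene) of the 10 genes in the 5 groups (x axis), with 1 point per library in the order of its number and the mean and SD of each group in black. BMF stands at 140.3 to 424 in siYAP+TAZ and at no more than 29.6 elsewhere, BBC3 is highest and BCL2 lowest in siYAP+TAZ, and BIK scatters between 5.00 and 22.3 with no order of groups.

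The comparisons of BMF that its choice did not use were those among Control, siYAP and siTAZ. None passed the adjusted p of 0.05 by edgeR, with Benjamini-Hochberg adjustment over all 18858 genes. The siTAZ libraries, 24.6 to 29.6, stood above the Control libraries, 7.89 to 14.99, with a log2 fold change of 1.26 (95% interval 0.11 to 2.42, adjusted p = 0.22). For siYAP against Control the log2 fold change was 0.52 (-0.69 to 1.74, adjusted p = 0.79), and for siTAZ against siYAP it was 0.74 (-0.29 to 1.77, adjusted p = 0.55). The intervals leave room for a rise of BMF in the single knockdowns as well as for none in siYAP. Over the siControl libraries, which helped to choose BMF, the log2 values were 0.66 in siYAP and 1.39 in siTAZ. On the log2 scale the co-knockdown exceeded the sum of these by 2.53 (SE 0.71), a description without test that fell to 1.82 without library 30.

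Per length, BMF stood lowest of the 10 members in siControl and, by its mean, above BCL2 and BIK alone in siYAP+TAZ. Normalized counts per kb of exon in siControl were 2694 ± 40.5 for BCL2L1, 1765 ± 83.3 for MCL1, 1069 ± 67.0 for BAX, 698 ± 30.6 for PMAIP1 and 599.9 ± 33.7 for BAD (SD, n = 3). Well below these came BCL2L11 at 61.1 ± 3.18, BBC3 at 50.7 ± 5.74, BCL2 at 29.0 ± 2.36, BIK at 11.7 ± 4.01 and BMF at 1.83 ± 0.76 normalized counts per kb. The neighbours BAD and PMAIP1, and BBC3 and BCL2L11, were close, but the siControl libraries of each pair did not overlap. In siYAP+TAZ the BMF level per kb was 44.1 ± 29.2, above BCL2 at 19.1 ± 1.14 and BIK at 14.8 ± 8.14 and below BBC3 at 87.8 ± 5.03, and libraries 20 and 25 lay below every co-knockdown library of BCL2L11 (50.9 ± 7.54) while library 30 lay above them. BMF made up 0.096%, 0.20% and 0.097% of the summed BH3-only level per kb in the siControl libraries and 1.72%, 2.06% and 4.83% in the siYAP+TAZ libraries. The mean of the latter, 2.87%, was 6.81% from raw counts without length and 5.08% without BAD. The sum itself was 1424 ± 39.9 per kb in siControl and 1501 ± 106 in siYAP+TAZ and overlapped between the groups, since NOXA and BAD messages make up most of it. The summed level of the 3 guards BCL2, BCL2L1 and MCL1 was 4368 to 4605 per kb in siControl and 3883 to 4149 in siYAP+TAZ, and the siYAP libraries, at 3951 to 4228, lay below siControl as well.

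**Figure D2:**
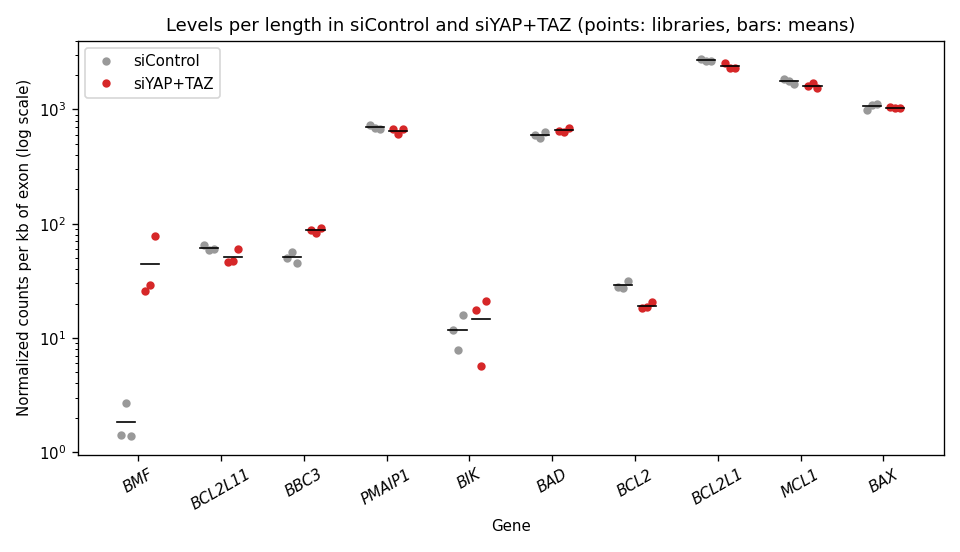
Normalized counts per kb of exon (y axis, log scale) of each member (x axis) in the 3 siControl libraries (grey) and the 3 siYAP+TAZ libraries (red), with bars at the means. BMF goes from 1.83 to 44.1 on average, while BCL2L1, MCL1, BAX, PMAIP1 and BAD keep the 5 highest places in both groups.

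Of the 9 members other than BMF, 1 rose and 1 fell in siYAP+TAZ against siControl. Over all genes tested 18.4% passed the adjusted p in this comparison, 9.97% with a rise and 8.39% with a fall, and 3.46% also reached a log2 fold change of 1 in size, the fold limit of the study. BBC3, whose product PUMA binds every guard of the family, rose. It stood at 161, 180.3 and 144 normalized counts in siControl against 283, 262 and 294 in siYAP+TAZ. The groups did not overlap, as was so for 36.4% of all genes. The log2 fold change was 0.79 (SE 0.12, 95% interval 0.53 to 1.05, edgeR adjusted p = 2.3e-04), a 1.73-fold rise. BCL2, the founding guard of the family, fell. It went from 356, 342 and 399 in siControl to 232, 234 and 258 in siYAP+TAZ, again without overlap. Its log2 fold change was -0.60 (SE 0.12, -0.86 to -0.34, edgeR adjusted p = 0.0023), which left 66.0% of the siControl mean. Neither gene reached the fold limit. Against the untransfected Control both calls held, with a log2 fold change of 0.89 for BBC3 (edgeR adjusted p = 8.0e-05) and of -0.63 for BCL2 (adjusted p = 0.0015), where 19.4% of all genes passed.

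The other 2 guards did not pass in siYAP+TAZ. BCL2L1, the guard with the highest level per kb, lay at 11175 to 11499 in siControl and at 10653, 9731 and 9714 in siYAP+TAZ. All 3 co-knockdown libraries were lower, by 0.17 on the log2 scale (-0.32 to -0.02, edgeR adjusted p = 0.10), and with the block it passed (adjusted p = 0.038). On the other strand ABALON covers 41.3% of the BCL2L1 exons, BMF-AS1 8.46% of those of BMF and MIR4435-2HG 10.8% of those of BCL2L11. No source used here says whether the counting used strand. MCL1, a short-lived guard, lay at 10414 to 11429 in siControl and at 9633 to 10668 in siYAP+TAZ, and the groups overlapped (log2 -0.13, -0.29 to 0.04, adjusted p = 0.32).

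None of the remaining BH3-only genes passed, nor did BAX. BCL2L11 lay at 435, 394 and 406 in siControl and at 310.3, 318 and 402 in siYAP+TAZ, where library 30 alone overlapped siControl. Its log2 fold change was -0.26 (-0.48 to -0.03, edgeR adjusted p = 0.10), and it passed without library 30, at -0.38 (adjusted p = 0.019), and with the block, at -0.27 (adjusted p = 0.029). BIM message was thus lower in the 2 co-knockdown libraries with the lower BMF counts. PMAIP1, a stress-induced gene whose protein binds MCL1, lay at 1469 to 1599.8 and at 1326 to 1469 (log2 -0.11, -0.27 to 0.05, adjusted p = 0.39). BAD, which is held inactive by growth factor signalling, had a log2 fold change of 0.13 (-0.08 to 0.33, adjusted p = 0.42), and GPR137 covers 23.7% of its exons on the other strand. BIK, at 5 to 22 reads per library, had 0.36 (-0.65 to 1.37, adjusted p = 0.67), so its interval leaves room for a rise or a fall that was not detectable at this depth. BAX, the pore former, lay at 2565 to 2872 in siControl and at 2638 to 2700.4 in siYAP+TAZ, with a log2 fold change of -0.05 (-0.19 to 0.09, adjusted p = 0.66).

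**Figure D3:**
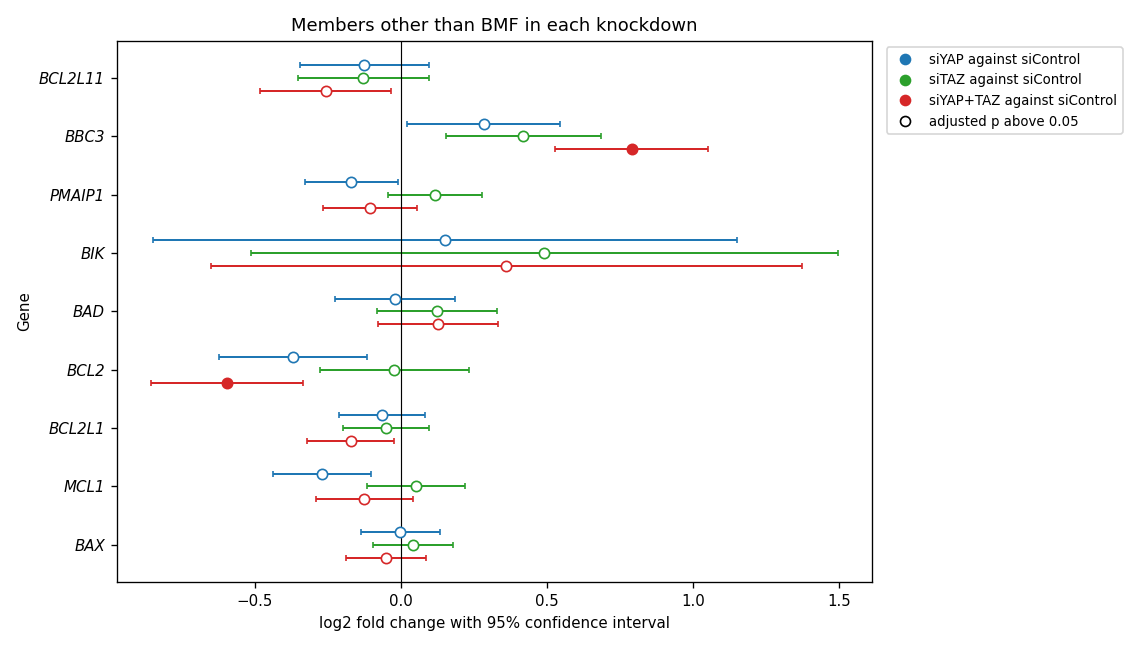
Log2 fold change against siControl (x axis, bars are 95% confidence intervals) of the 9 members other than BMF (y axis) in siYAP (blue), siTAZ (green) and siYAP+TAZ (red), with filled points where the adjusted p did not exceed 0.05. Only BBC3 at 0.79 and BCL2 at -0.60 in siYAP+TAZ are filled, and all 3 comparisons share the same siControl libraries.

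In the single knockdowns none of the 9 members other than BMF passed against siControl in the fit without a block, and 3 calls appeared with it. Every share of all genes given is that of edgeR without a block. For siYAP, 0 of 9 passed by edgeR and by DESeq2 and 0.933% of all genes passed, while 4 of the 9 and 2241 of all 18858 genes had an unadjusted p under 0.05. These 4 were BCL2, MCL1, BBC3 and PMAIP1, and in each the 3 siYAP libraries lay on 1 side of the siControl libraries, as was so for 19.5% of all genes. BCL2 lay at 274, 307 and 266 in siYAP, with a log2 fold change of -0.37 (-0.63 to -0.11, adjusted p = 0.18, and 0.030 with the block). MCL1 lay at 9139, 10112 and 8042, with -0.27 (-0.44 to -0.10, adjusted p = 0.13, and 0.0062 with the block). Because these libraries did not overlap, both genes were also lower within each of the 3 runs, which adds no further support. BBC3 lay at 184, 184 and 224, with 0.28 (0.02 to 0.55, adjusted p = 0.37). For siTAZ, 0 of 9 passed by either tool and 2.03% of all genes passed, while 1 of the 9 and 3023 of all 18858 genes had an unadjusted p under 0.05. That gene was BBC3, at 199, 226 and 225, above every siControl library (log2 0.42, 0.15 to 0.68, adjusted p = 0.092, and 0.024 with the block). BCL2 lay at 339, 390.3 and 349.6 in siTAZ, within reach of the siControl libraries (log2 -0.02, -0.28 to 0.23, adjusted p = 0.95).

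Against Control, BBC3 passed in siTAZ (log2 0.52, 0.25 to 0.79, edgeR adjusted p = 0.031) and was the 1 member of 9 to do so, where 3.40% of all genes passed. This call was lost without library 16, 21, 24 or 29, at adjusted p-values of 0.098 to 0.15. In siYAP against Control 0 of 9 passed by edgeR, 3 had an unadjusted p under 0.05 (2421 of all genes), DESeq2 called MCL1 alone, the block gave BBC3, BCL2 and MCL1 (adjusted p-values of 0.050, 0.018 and 0.0049) and 1.46% of all genes passed. Between the untransfected and the siControl cells 0 of 9 members passed by edgeR or DESeq2, none had an unadjusted p under 0.05, and 0% of all genes passed by edgeR, with 398 at an unadjusted p under 0.05.

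Both single knockdowns were also set against the co-knockdown and against each other. In siYAP+TAZ against siYAP only BBC3 passed (log2 0.51, 0.25 to 0.76, edgeR adjusted p = 0.021), where 5.13% of all genes did, and its call was lost without library 18, 20, 23 or 30 (adjusted p-values of 0.067 to 0.11). In siYAP+TAZ against siTAZ only BCL2 passed without the block (log2 -0.57, -0.83 to -0.31, adjusted p = 0.011), where 5.44% of all genes did, and its call was lost without library 20, 24 or 25 (adjusted p-values of 0.053 to 0.055). BCL2 did not pass between siYAP+TAZ and siYAP (log2 -0.23, -0.49 to 0.03, adjusted p = 0.35), although its libraries did not overlap there. BBC3 did not pass between siYAP+TAZ and siTAZ (log2 0.37, 0.11 to 0.63, adjusted p = 0.089, and 0.026 with the block), and PMAIP1 passed there with the block (log2 -0.22, adjusted p = 0.034). In siTAZ against siYAP 0 of 9 passed by edgeR and 0.642% of all genes passed, while 3 of the 9 and 2576 of all 18858 genes had an unadjusted p under 0.05. MCL1 (log2 0.32, 0.16 to 0.49, adjusted p = 0.069), PMAIP1 (0.29, 0.12 to 0.45, adjusted p = 0.099) and BCL2 (0.35, 0.09 to 0.60, adjusted p = 0.21) stood higher in all siTAZ libraries than in all siYAP libraries, as 9.38% of all genes did. DESeq2 called MCL1 and PMAIP1, and all 3 passed with the block (adjusted p-values of 0.0017, 0.013 and 0.042). The interaction term asks whether the co-knockdown differs from the sum of the single knockdowns on the log2 scale. It passed for 0 of 9 members by edgeR or DESeq2 and for 0.0106% of all genes, and none of the 9 had an unadjusted p under 0.05 (1104 of all genes). It was 0.09 for BBC3 (-0.28 to 0.46) and -0.20 for BCL2 (-0.57 to 0.16), so neither a departure from the sum nor its absence was shown.

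Other genes of the same pathway are given by list, in siYAP+TAZ against siControl, beside the 18.4% of all genes that passed and their median log2 fold change of -0.01. Of 14 further genes of the BCL2 family 11 were in the table, 2 rose and 1 fell (median 0.06). BNIP3L and BNIP3, receptors for the removal of mitochondria, rose by 0.46 (edgeR adjusted p = 2.3e-04) and 0.50 (adjusted p = 0.042) on the log2 scale, and BCL2L12 fell by 0.25 (adjusted p = 0.041). Only BNIP3L passed without library 20, 22, 25 or 27, and the pore former BAK1 had a log2 fold change of 0.12 (adjusted p = 0.47). Of 15 caspase and apoptosome genes 2 rose and none fell (median 0.05). CASP10, an initiator of the death receptors, rose by 0.63 (adjusted p = 0.014) and did not pass without library 22, 27 or 30. CYCS, the released cytochrome c, had -0.27 (adjusted p = 0.070) and passed with the block. Of 7 genes of inhibitors of apoptosis 6 were in the table, 0 passed by edgeR or DESeq2, 1 had an unadjusted p under 0.05 (5709 of all genes) and the median was 0.10. BIRC5 had a log2 fold change of -0.24 (adjusted p = 0.13), BIRC2 of -0.20 (adjusted p = 0.17) and XIAP of 0.15 (adjusted p = 0.25). With the block BIRC5 and BIRC2 passed and XIAP did not.

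Regulators of BH3-only genes and proteins numbered 23, of which 3 rose and 2 fell (median 0.02). FOXO4, a forkhead factor, went from 85.1, 72.1 and 77.2 in siControl to 184, 192 and 173 in siYAP+TAZ, a log2 fold change of 1.23 (edgeR adjusted p = 1.8e-05). Its siYAP and siTAZ libraries lay between 84.8 and 114. MAPK8, the kinase JNK1 that can phosphorylate BIM and BMF proteins, fell by 0.42 (adjusted p = 0.0016), and MAPK3, the kinase ERK1 that marks BIM for decay, rose by 0.41 (adjusted p = 0.012). FOXO1 rose by 0.84 (adjusted p = 0.032), with library 30 inside the siControl range, and FBXW7, which targets MCL1 for decay, fell by 0.31 (adjusted p = 0.039). Without library 17 or 20 only FOXO4 and MAPK8 passed, and without 22 or 25 these and 1 more, FOXO1 or MAPK3. The dynein light chains that hold BMF and BIM, DYNLL1 and DYNLL2, had log2 values of -0.01 (adjusted p = 0.96) and -0.18 (adjusted p = 0.27). With the block DYNLL2 passed and DYNLL1 did not.

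FOXO target genes numbered 18, of which 10 rose and 1 fell (median 0.99). Those past the fold limit were PDK4 (1.93), PIK3IP1 (1.92), TNFSF10 (1.83), YPEL3 (1.60), CCNG2 (1.52), KLHL24 (1.43), SESN3 (1.13) and FBXO32 (1.06). TNFSF10, the death ligand TRAIL, lay at 269, 238 and 169.5 in siControl and at 743, 695 and 977 in siYAP+TAZ, and also passed in siTAZ (log2 1.15, adjusted p = 0.0090). GADD45A fell by 0.59. Of 12 YAP/TAZ target genes 10 fell and none rose (median -0.85), with ANKRD1 at -1.36, CCN1 at -1.17 and F3 at -1.02 past the fold limit.

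**Figure D4:**
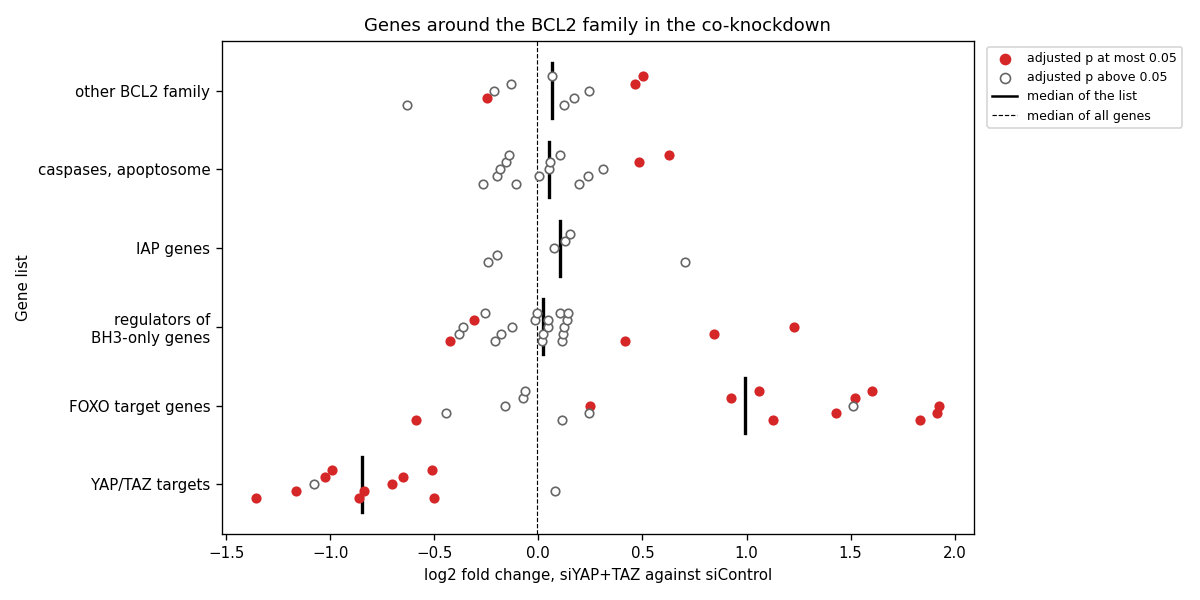
Log2 fold change of siYAP+TAZ against siControl (x axis) for each gene of 6 lists (y axis, points are spread in height only for sight), red where the adjusted p did not exceed 0.05, with the median of each list as a bar and that of all genes as a dashed line. HRK, at 1.07 to 6.47 normalized counts in siControl and 0 in siYAP+TAZ, is left off the plot. FOXO targets centre at 0.99 and YAP/TAZ targets at -0.85, and the other 4 lists centre between 0.02 and 0.10.

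Among the markers of other cells, PDGFRB, a receptor of fibroblasts, moved with the co-knockdown. It lay at 46.8, 67.5 and 80.5 in siControl and at 170.0, 159 and 254 in siYAP+TAZ (3.03-fold, edgeR adjusted p = 0.0010). COL1A1 had a log2 fold change of 0.42 (adjusted p = 0.22), so 1 of the 2 fibroblast markers in the table passed and 0 of the 7 tested for luminal, hormone receptor, immune and endothelial cells did. Against Control both fibroblast markers rose and KDR fell (log2 -0.45), and KDR also fell in siYAP+TAZ against siYAP (log2 -0.53). Of the 3 markers of the line itself, VIM, CD44 and AXL, 1 fell in siYAP+TAZ against siControl, where 18.4% of all genes passed. The part of these markers in the results on BMF and BBC3 was not tested.

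The genes whose log2 CPM, the depth-scaled count on the log2 scale, followed BMF most closely over the 15 libraries were TP53INP1 (Pearson r = 0.965), SVIL (0.964), LRP5 (0.962), GSN (0.960) and ABTB1 (0.957). They were drawn from the 13210 genes that averaged 20 or more normalized counts. This likeness is a description, since the points fall into the 5 groups and share their libraries. After the group means were subtracted r was 0.72, 0.56, 0.55, 0.59 and 0.65 in the same order, and with the siYAP+TAZ libraries left out it was 0.73, 0.83, 0.77, 0.83 and 0.83. Both sets of values reuse libraries by which the 5 genes were chosen, and outside siYAP+TAZ BMF rests on 6 to 30 reads. TP53INP1 lay at 64.6, 70.3 and 64.4 in siControl, at 80.1, 87.9 and 83.5 in siTAZ and at 163, 155 and 201 in siYAP+TAZ, so that library 30 was highest as for BMF. GSN, the actin-severing protein gelsolin, lay at 1433 to 1753 in siControl, at 1895 to 2735 in the single knockdowns and at 4373 to 5603 in siYAP+TAZ. Within the family r with BMF was 0.88 for BBC3, -0.71 for BCL2, -0.69 for BCL2L1 and -0.55 for BCL2L11. Once group means were subtracted it was 0.27, -0.09, -0.28 and 0.46 in the same order. For BCL2L11 the plain r, with no group mean subtracted, went from -0.55 to -0.87 when library 30 was left out.

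**Figure D5:**
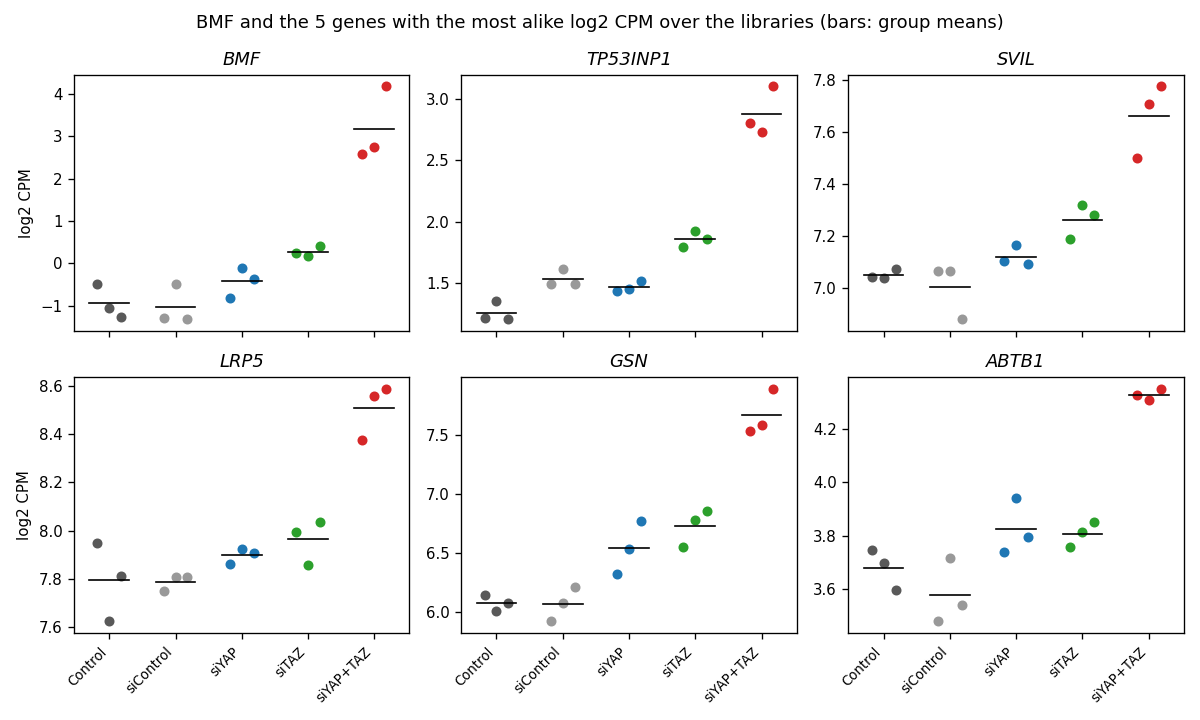
Log2 CPM (y axis, a scale for each gene) of BMF and of the 5 genes most like it in the 15 libraries by group (x axis), with bars at the group means. In all 6 genes the siYAP+TAZ libraries stand above every other library, which the choice of BMF by its rise and of the 5 by their likeness to it favours. BMF is at 25.8, 24.6 and 29.6 normalized counts in siTAZ, above all libraries of the controls and of siYAP.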

How the data were processed

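Polyadenylated RNA of 15 libraries was sequenced as single reads on a NovaSeq and processed by the authors with the UTAP pipeline. Reads were trimmed with cutadapt, aligned with STAR 2.4.2a to GRCh38 with GENCODE release 34 and counted per gene by STAR, and the raw counts were deposited for 18858 genes, each with at least 5 reads in at least 1 library. Whether the counting used strand is not given in the sources used here. The table also holds normalized and rlog values (30 columns) and the authors' own comparisons, which were not used.

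Libraries were grouped by their labels. Counts were scaled by TMM (factors 0.943 to 1.03) and tested with the quasi-likelihood method of edgeR 4.0.16 in R 4.3.3 (robust, all 15 libraries, 1 coefficient per group, no block), and p-values were adjusted with Benjamini-Hochberg over all genes. A gene passed where the adjusted p did not exceed 0.05, and the fold limit was a log2 fold change of 1. Members rose or fell only where they passed. The 11 comparisons share control libraries. Alternatives were DESeq2 1.42.0, other scalings, filterByExpr, only the groups compared, a block for the run of library numbers, and fits that each lacked 1 library. On simulated counts for siYAP+TAZ against siControl over 18858 genes, edgeR recovered 76 of 100 genes changed by 0.7 and 97 of 100 changed by 1.5 on the log2 scale, with 4 unchanged genes called.

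The members and gene lists were chosen with earlier results of these data known, so the list counts are no independent support. Named were all members, from each list the genes past both limits and up to 3 more with the smallest adjusted p, the siRNA targets, and the 5 genes with the highest Pearson r with BMF (log2 CPM, prior count 2). BAK1, CYCS, DYNLL1, DYNLL2 and HRK were added for their known roles after their values were seen, and some genes that the rule names and 1 list are not reported here. Exon lengths and overlaps came from GENCODE release 44, where 82.59% of genes were found by name. No 2 libraries of a group agreed within counting noise (chi-square per gene 6.69 to 42.3).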

Additional observations from a re-analysis of the deposited data

How the results depend on the processing

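Depth limits BMF and BIK, which rest on 5 to 30 reads per library outside BMF in the co-knockdown. The calls of BBC3 and BCL2 in siYAP+TAZ against siControl held under all alternatives run, with log2 values of 0.71 to 0.87 and -0.64 to -0.53 and adjusted p-values of 1.6e-07 to 0.0019 and 7.1e-05 to 0.013. BMF kept its direction in siTAZ against Control (2.14-fold to 3.04-fold, adjusted p 0.095 to 0.44), siYAP against Control (log2 0.32 to 0.87) and siTAZ against siYAP (log2 0.54 to 0.93) and passed in none. No call reversed. The BMF share of the BH3-only level in siYAP+TAZ, 2.87% on average, was 6.81% from raw counts without length and 5.08% without BAD. Without library 30 the log2 difference of BMF from Control, siYAP and siTAZ was 3.74, 3.21 and 2.49.

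The library numbers run in 5s and were tried as a replicate block. Libraries of the same run correlated in their deviations from the group means at a median of 0.39, from -0.05 to 0.62 over 30 pairs. The 60 pairs of different runs had a median of -0.32, from -0.57 to 0.39. Deviations cancel within each group, which favours negative values between runs. Of the libraries, 10 of 15 correlated best with their own run. Different-run pairs among libraries numbered below 26 were positive, apart from some with library 24. Pairs of libraries 26 to 30 with earlier ones were negative, again apart from some with library 24. The values thus set libraries 26 to 30 apart more clearly than they part the earlier runs. Library 30, where BMF was highest, is among these. Within its run, the pairs of siTAZ library 24 correlated at -0.05 to 0.03, and all other pairs of the same run at 0.19 to 0.62. No source used here ties a run to an experiment either, so the block stayed an alternative. With the block, members other than BMF past the adjusted p numbered 4 in siYAP+TAZ against siControl (2 without it), 2 in siYAP against siControl (0), 1 in siTAZ against siControl (0), 3 in siYAP against Control (0), 3 in siYAP+TAZ against siTAZ (1; BBC3 and PMAIP1 were added) and 3 in siTAZ against siYAP (0; MCL1, PMAIP1 and BCL2, adjusted p-values of 0.0017, 0.013 and 0.042). Genes past it in siYAP+TAZ against siControl numbered 5 in the other BCL2 family (3), 7 among caspase and apoptosome genes (2), 2 among inhibitors of apoptosis (0) and 8 among regulators (5). With DESeq2, members numbered 1 in siYAP against Control and 2 in siTAZ against siYAP (0 each by edgeR). With only the groups compared, 0 passed in siTAZ against Control (1). With library size alone, 1 gene of the other BCL2 family and 4 of the caspase list passed. The share of all genes that passed in these alternative fits is not given here, so their counts cannot be set beside it.

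With each library left out in turn, members numbered 0 to 1 in siTAZ against Control, 0 to 1 in siYAP+TAZ against siYAP, 0 to 2 in siYAP+TAZ against siTAZ and 0 to 1 in siTAZ against siYAP. The lists gave 1 to 2 genes of the other BCL2 family, 1 to 2 of the caspase list and 2 to 4 regulators. In siTAZ against siYAP, PMAIP1 passed without library 19 and MCL1 without library 23, and PMAIP1 passed in siYAP+TAZ against siTAZ without library 19.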
